A study of Homo sapiens with 9 samples.

Results

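The 10 genes described here encode integrin subunits of keratinocytes: the α subunits ITGA2, ITGA3, ITGA5, ITGA6 and ITGAV, and the β subunits ITGB1, ITGB4, ITGB5, ITGB6 and ITGB8. They were chosen by name from the integrin family, and all 10 were found among the 78899 gene IDs of each library by matching IDs to symbols. RNA-seq had been run on HaCaT cells, an immortalized line of human keratinocytes, to compare subpopulations separated by fluorescence-activated sorting, with an interest in progenitor-like states. There were 3 libraries of a sorted subpopulation named BD, 3 of a sorted subpopulation named NBD, and 3 of the HaCaT line labelled control. The sources used here do not spell out these names and do not give the marker or gate of the sort. All groups shared the line and its culture in high-glucose DMEM with fetal bovine serum and low calcium. RNA was extracted with a pair of micro-scale kits, without a statement of the kit used for each library in the sources used here. The labels do not state whether replicates are separate cultures, so the p-values cover only the spread among the samples at hand, and that spread may be technical.

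Integrins are cell surface receptors made of one α and one β subunit, which link the extracellular matrix outside the cell to the cytoskeleton inside it. In basal keratinocytes, α6β4 anchors hemidesmosomes to laminin-332 and to the keratin filaments, α3β1 binds the same laminin, and α2β1 binds collagens. The αv subunit pairs with several β subunits: αvβ5 binds vitronectin, and αvβ6 and αvβ8 bind latent TGF-β and can activate it, while α5β1 is the fibronectin receptor. High surface levels of α6 and β1 integrins are widely used to enrich epidermal progenitor cells.

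Integrin transcripts differed most between libraries for ITGB8, ITGB4 and ITGB5, and least for ITGAV. BD and NBD libraries overlapped for 7 subunits. For the other 3, ITGA3 and ITGA5 were higher and ITGB6 lower in every BD library than in any NBD library. None of these 3 differences passed the test over all genes, and 14.6% of all genes likewise did not overlap between BD and NBD. Against control, the values depended on which control library was used. Control replicates 1 and 2 held less ITGB8 and more ITGA6 and ITGB5 than each of the 6 sorted libraries. Control replicate 3 lay within the range of the sorted libraries for these 3 genes. For 40.5% of all genes, control replicates 1 and 2 both lay outside the range of the other 7 libraries.

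The promoters of ITGA6, ITGB5 and ITGB8 are shown because these subunits passed the test over all genes in both comparisons with control when control replicate 3 was left out. That library was left out after its values were seen, and with all libraries none of the 3 passed. RefSeq on GRCh38.p14 gave promoters of 8 of the 10 genes, and ITGA3 and ITGB4 had no entry in that table. The table held 2 entries for ITGA6, 3 for ITGB5 and 1 for ITGB8, and the entry farthest upstream is shown. The ITGA6 and ITGB5 sequences end at the base before the RefSeq start. The ITGB8 sequence is the first 52 bases of its 250-base window, the far end from the RefSeq start, because the rest of that window overlaps an exon annotated in GENCODE. Capitals mark matches, on either strand, to 4 motifs: TGANTCA, bound by AP-1, GGGCGG, bound by SP1 and KLF factors, TATAAA, the TATA box, and CCAAT. No marked motif overlapped another.
ITGA6: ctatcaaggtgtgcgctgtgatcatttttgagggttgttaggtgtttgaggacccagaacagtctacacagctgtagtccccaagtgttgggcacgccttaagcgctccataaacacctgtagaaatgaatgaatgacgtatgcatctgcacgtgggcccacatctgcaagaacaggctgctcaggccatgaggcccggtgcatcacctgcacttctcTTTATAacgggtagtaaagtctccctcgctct
ITGB5: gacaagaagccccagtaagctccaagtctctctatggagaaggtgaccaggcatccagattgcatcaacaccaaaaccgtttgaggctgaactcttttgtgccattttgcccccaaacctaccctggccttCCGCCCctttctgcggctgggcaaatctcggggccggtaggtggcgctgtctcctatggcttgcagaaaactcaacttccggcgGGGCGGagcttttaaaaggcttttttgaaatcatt
ITGB8: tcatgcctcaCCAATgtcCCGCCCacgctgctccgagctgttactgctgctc
The ITGA6 stretch (chr2:172427086-172427335, plus strand) held 1 TATAAA match, read on the reverse strand. The ITGB5 stretch (chr3:124901419-124901668, minus strand) held 2 GGGCGG matches, one on each strand. The ITGB8 stretch (chr7:20330650-20330701, plus strand) held 1 CCAAT match and 1 GGGCGG match, the second of them on the reverse strand. Of 27305 RefSeq promoters, 11.1% held TATAAA, 42.3% GGGCGG, 33.0% CCAAT and 6.6% TGANTCA in the same 250 bases. In the first 52 of these bases, 6.6% held CCAAT and 8.8% held GGGCGG. Those 52 bases are the far end from each RefSeq start. The ITGB8 stretch ends at the base before the GENCODE start of the gene (20330702), so by that start the shares are not like for like. Not shown, the other ITGA6 entry held 3 GGGCGG matches, the other ITGB5 entries 0 and 3, and the whole ITGB8 window 2, so each of the 3 genes had that motif in at least 1 entry. A match is a description of letters, not a site of binding.

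The libraries held 27678024, 25754757 and 28948743 counts in BD, 26345128, 25862752 and 29512856 in NBD, and 18054999, 17128797 and 25782938 in control. The keratinocyte markers were present: all 9 keratinocyte markers were tested, none stood under 86.8 CPM in any library, and their summed level ran from 2540 to 3460 CPM in BD, 2120 to 3200 CPM in NBD and 2960 to 4300 CPM in control. Here CPM is a gene's count relative to the scaled library total. Control replicate 3 stood apart from control replicates 1 and 2, so each comparison with control is given with all 3 controls, without replicate 3 and with replicate 3 as the sole control. Of 3 endothelial markers, CDH5 moved with that split, at 14.6, 11.8 and 18.8 CPM in BD, 15.6, 5.92 and 11.9 CPM in NBD and 1.07, 0.785 and 16.6 CPM in control, while PECAM1 stayed at or under 0.197 CPM. VWF, the third of them, went the other way at low levels, with 0.417, 0.118 and 0.0689 CPM in BD, 0.593, 0.703 and 0.157 CPM in NBD and 1.53, 1.07 and 0.0753 CPM in control. Leaving out control replicate 3, CDH5 was called higher in BD against control (4.02 ± 0.47) and VWF lower (-2.64 ± 0.76), with edgeR adjusted p = 3.4e-04 and 0.0278. The leukocyte marker CD14 (2.78 ± 0.43) and the fibroblast marker COL1A1 (2.72 ± 0.51) were also called higher there (edgeR, adjusted p = 0.00149 and 0.00419). In NBD against control, CDH5, CD14 and COL1A1 were called higher in that fit (3.59 ± 0.47, 2.57 ± 0.43 and 1.95 ± 0.51, edgeR adjusted p = 7.7e-04, 0.00281 and 0.0241). VWF was not called in NBD. Of 4 leukocyte markers, CD14 moved with the split of the controls too, while PTPRC stayed at or under 0.148 CPM. CD14 had 4.65, 5.38 and 6.86 CPM in BD, 3.67, 4.01 and 6.85 CPM in NBD and 1.02, 0.617 and 6.33 CPM in control. The summed level of the endothelial list ran from 11.9 to 18.9 CPM in BD, 6.66 to 16.3 CPM in NBD and 1.85 to 16.8 CPM in control. The summed level of the leukocyte list ran from 4.65 to 6.86 CPM in BD, 3.89 to 6.85 CPM in NBD and 0.617 to 6.36 CPM in control. Of 6 fibroblast markers, COL1A1 had 2.78, 3.10 and 3.76 CPM in BD, 2.19, 2.23 and 1.22 CPM in NBD and 0.255, 0.729 and 3.20 CPM in control. The list summed to 4.1 to 5.2 CPM in BD, 2.89 to 4.22 CPM in NBD and 0.715 to 5.24 CPM in control. LUM ran from 0.393 to 0.799 CPM in BD, 0.331 to 1.22 CPM in NBD and 0.102 to 1.09 CPM in control. COL1A2 stayed at or under 0.168 CPM. LUM, COL1A2 and PTPRC were chosen after their values were seen. The 4 melanocyte markers summed to 0.834 to 1.53 CPM in BD, 1.07 to 1.85 CPM in NBD and 0.204 to 0.841 CPM in control. Without control replicate 3, edgeR called 1 of the 9 keratinocyte markers higher and 3 lower in BD against control. Of all genes, 13.8% were higher and 10.5% lower there. In NBD against control 1 was called higher and 4 lower, where 11.6% of all genes were higher and 6.56% lower. Those called in BD were KRT17 (1.76 ± 0.41), KRT6A (-2.04 ± 0.36), DSP (-1.37 ± 0.29) and KRT5 (-0.94 ± 0.29). Those called in NBD were KRT17 (1.31 ± 0.40), KRT6A (-1.70 ± 0.36), KRT5 (-1.16 ± 0.29), DSP (-1.12 ± 0.29) and CDH1 (-0.60 ± 0.18). The part of these genes in the integrin differences was not tested. In these bulk samples, fewer cells of a type and less RNA per cell cannot be told apart.

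**Figure D1:**
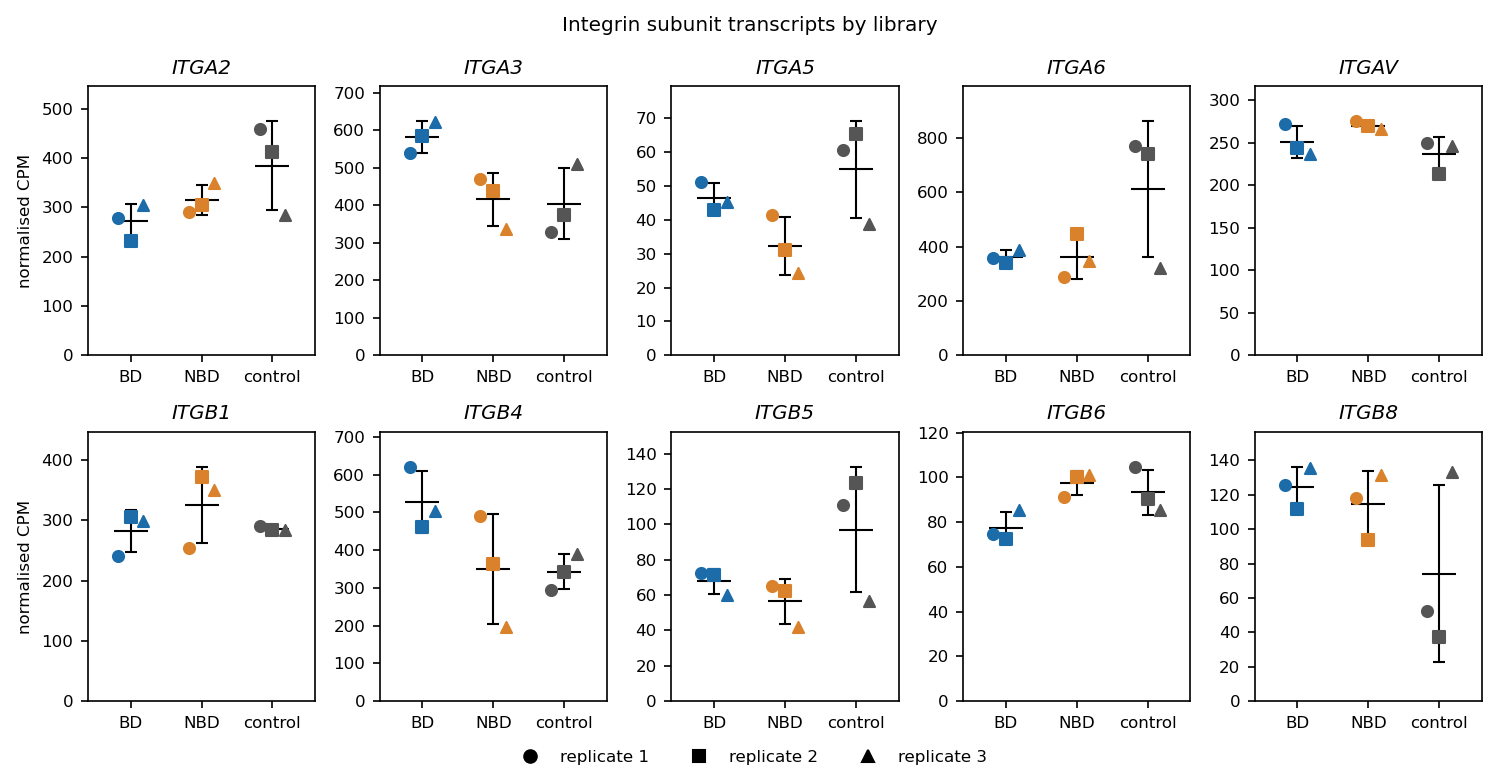
Normalised CPM of each integrin subunit (vertical axis, from 0) in the BD, NBD and control libraries; each point is 1 library, its shape gives the replicate number, and bars are the mean ± SD (n = 3). Control replicate 3, the grey triangle, lies apart from control replicates 1 and 2 for ITGA2, ITGA5, ITGA6, ITGB5 and ITGB8.

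The order of the subunits was compared as CPM per kb of the union of a gene's exons, because longer transcripts give more reads. In BD, ITGB4 led at 78.2 ± 12.2 CPM per kb (SD, n = 3), above ITGA3 at 59.4 ± 4.31, ITGA6 at 55.6 ± 3.77, ITGB1 at 46.9 ± 5.86, ITGA2 at 34.3 ± 4.61 and ITGAV at 30.6 ± 2.31. The BD libraries of ITGA3 and ITGA6 overlapped, as did those of ITGA2 and ITGAV, and no other neighbours in this order did. ITGB6 followed at 16.5 ± 1.47, ITGB5 at 10.5 ± 1.08, ITGB8 at 8.20 ± 0.777 and ITGA5, the lowest, at 6.13 ± 0.576 CPM per kb. In NBD, ITGA6, ITGB1, ITGB4, ITGA3 and ITGA2 had means of 55.2, 54.1, 51.8, 42.4 and 39.8 CPM per kb, and each overlapped its neighbour. NBD levels then stepped down without overlap to ITGAV at 32.9, ITGB6 at 20.8 and ITGB5 at 8.76, which overlapped ITGB8 at 7.55, with ITGA5 lowest at 4.26 CPM per kb. In control, ITGA6 led at 93.6 ± 38.4 CPM per kb, yet its replicate 3, at 49.3, overlapped ITGB4 at 50.7 ± 6.90. ITGA2, ITGB1 and ITGA3 followed at 48.6, 47.6 and 41.3, then ITGAV at 28.8, ITGB6 at 19.9, ITGB5 at 15.0, ITGA5 at 7.24 and ITGB8 at 4.89 CPM per kb. In control, neighbours did not overlap between ITGA3 and ITGAV, ITGAV and ITGB6, and ITGB5 and ITGA5, and overlapped elsewhere in the order. The order rests on the length used. With the length of the longest coding transcript, ITGA3 led in BD at 119 ± 8.64 CPM per kb and ITGB4 came next at 89.3 ± 13.9. NBD then had ITGB1 at 85.9 ± 16.6 and ITGA3 at 85.1 ± 14.4, above ITGA6 at 64.2 ± 14.1. Control still had ITGA6 first, at 109 ± 44.7, with ITGA3 next at 82.7 ± 19.5. The 10 subunits together summed to 2636, 2467 and 2683 CPM in BD, 2384, 2482 and 2145 CPM in NBD and 2721, 2685 and 2349.9 CPM in control, so NBD replicate 3 was lowest.

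BD against NBD asks how the sorted subpopulations differ. The largest differences among the subunits were higher levels in BD of ITGB4, ITGA5 and ITGA3 and a lower level of ITGB6. ITGB4, the β subunit of the hemidesmosome (ENSG00000132470, GRCh38 chromosome 17, 75721328 to 75757818, plus strand), had 620.4, 461 and 505 CPM in BD, against 489.6, 364 and 197 CPM in NBD. NBD replicate 1 lay inside the BD range and NBD replicate 3 was the lowest of the 6. The log2 fold change was 0.59 ± 0.30 (95% interval -0.07 to 1.26). ITGA3, the α subunit of the laminin receptor α3β1 (ENSG00000005884, chromosome 17, 50055968 to 50090481, plus strand), had 539, 586 and 623 CPM in BD, against 472, 439 and 336 CPM in NBD. All BD libraries lay above all NBD libraries, with a log2 fold change of 0.49 ± 0.22 (-0.01 to 0.98). ITGA5, which forms the fibronectin receptor with ITGB1 (ENSG00000161638, chromosome 12, 54395261 to 54419460, minus strand), had 51.3, 42.8 and 45.2 CPM in BD, against 41.3, 31.2 and 24.4 CPM in NBD. These groups did not overlap either, with a log2 fold change of 0.53 ± 0.24 (-0.02 to 1.07). ITGB6, the partner of ITGAV in αvβ6 (ENSG00000115221, chromosome 2, 160099666 to 160200313, minus strand), had 74.9, 72.4 and 85.4 CPM in BD, against 91.2, 100.2 and 101 CPM in NBD. BD was lower throughout, with a log2 fold change of -0.33 ± 0.16 (-0.67 to 0.01).

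The quasi-likelihood test of edgeR, adjusted over 16921 genes by the Benjamini-Hochberg method, called 0 of 10 subunits at an adjusted p under 0.05, where 0.0177% of all genes were called. Adjusted p was 0.814 for ITGA3, ITGA5, ITGB4 and ITGB6. With all 9 libraries, 0 subunits reached an unadjusted p under 0.05 in edgeR, where 991 genes did, and DESeq2 called 0 of 10, where it called 0.343% of genes, with 1 subunit at an unadjusted p under 0.05. The count was also 0 of 10 without control replicate 3 (0.0901% of genes) and when replicate 3 was the sole control (0.0478% of genes). Unadjusted p under 0.05 was reached in edgeR by 3 subunits without control replicate 3 (1781 genes), by 2 with replicate 3 as the sole control (1496 of 18832 genes) and by 3 from the 6 BD and NBD libraries alone (1390 of 16151 genes). Groups did not overlap for 3 of 10 subunits, 2 higher and 1 lower in BD, against 14.6% of all genes, 7.19% higher and 7.36% lower. The median log2 fold change of the 10 was 0.07, and that of all genes was -0.02. The other 7 subunits overlapped between BD and NBD. ITGA6 was at 0.01 ± 0.31 (-0.68 to 0.70) and ITGB1 at -0.21 ± 0.20 (-0.64 to 0.23).

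Differences in these 4 genes were smaller without NBD replicate 3, least so for ITGB6. In its absence, the log2 fold change of BD against NBD was 0.32 for ITGB4, 0.36 for ITGA3, 0.37 for ITGA5 and -0.30 for ITGB6, and without NBD replicate 1 it was 0.92 for ITGB4. Transcript GC content moved with this library and with others. Of 12592 protein-coding genes tested, 12564 had a transcript sequence (99.8%), and 2 tested genes of another type with a coding transcript were kept as well. The difference of NBD replicate 3 from the mean of NBD replicates 1 and 2 had a median of 0.30 log2 units in the lowest of 5 equal GC bins and -0.25 in the highest. Measured in the same way against the other libraries of its group, NBD replicate 1 was at -0.29 in the lowest bin and 0.24 in the highest, control replicate 1 at 0.17 and -0.35, control replicate 2 at -0.16 and 0.01, and control replicate 3 at 0.01 and 0.34. NBD replicate 2 and the BD libraries stayed between -0.05 and 0.06 in every bin. ITGB4, at 63.7% GC, was at -1.10 log2 units in NBD replicate 3, with ITGA3 (60.9% GC) at -0.44, ITGA5 (58.7% GC) at -0.55 and ITGB5 (54.3% GC) at -0.60. The AT-rich subunits were at 0.32 for ITGB8 (37.8% GC), 0.23 for ITGA2 (40.2%), 0.19 for ITGB1 (40.0%), 0.08 for ITGB6 (40.1%), -0.04 for ITGAV (38.3%) and -0.04 for ITGA6 (42.9%). The part of GC content in the differences between BD and NBD was not tested.

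**Figure D2:**
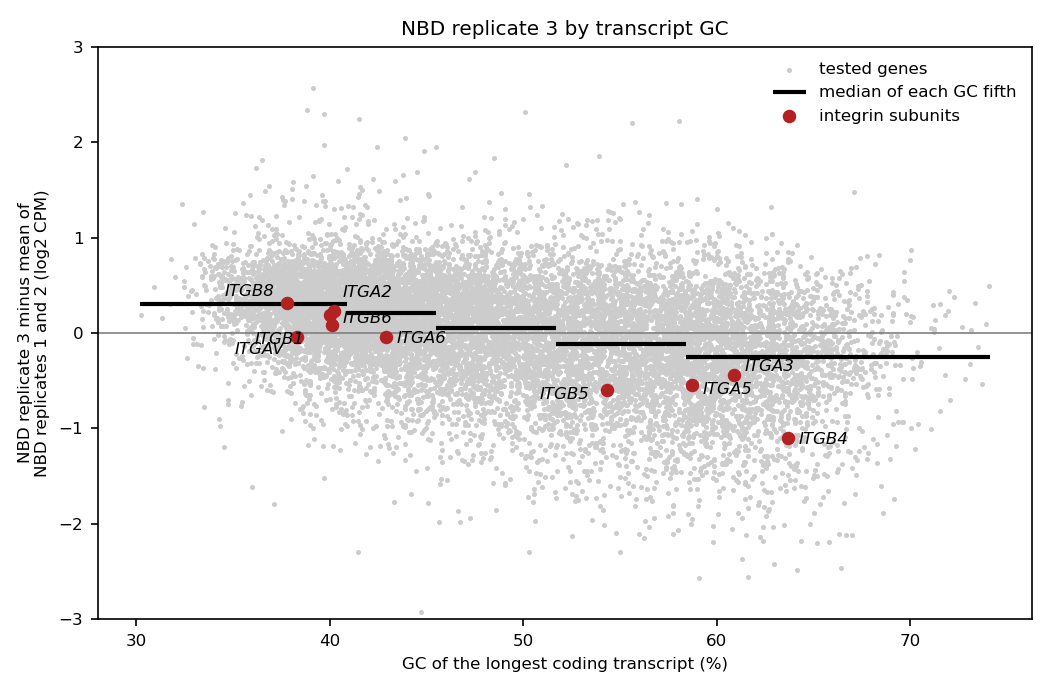
Difference of NBD replicate 3 from the mean of NBD replicates 1 and 2 (log2 CPM, vertical axis) against GC of the longest coding transcript (percent, horizontal axis) for 12566 genes, the 2 genes of another type included, of which 3 lie beyond the drawn range; black lines are medians of 5 equal GC bins and red points the integrin subunits. The 4 subunits of highest GC, ITGA3, ITGA5, ITGB4 and ITGB5, lie between -0.44 and -1.10, below the other 6.

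Against control, the laminin and collagen receptor subunits ITGA6 and ITGA2 had lower means in BD and ITGA3 and ITGB4 higher ones, and none was called with all libraries. ITGA6, the partner of ITGB4 (ENSG00000091409, chromosome 2, 172427354 to 172506282, plus strand), had 360.0, 341 and 389.6 CPM in BD, 288, 446 and 348 CPM in NBD, and 769, 743 and 322 CPM in control. Control replicates 1 and 2 lay above each of the other 7 libraries, and control replicate 3 lay within their range. With all libraries the log2 fold change was -0.75 ± 0.31 in BD (adjusted p = 0.352) and -0.76 ± 0.31 in NBD (adjusted p = 0.539), by edgeR. When control replicate 3 was left out, ITGA6 fell by 1.05 ± 0.21 in BD (adjusted p = 0.00577) and fell by 1.05 ± 0.21 in NBD (adjusted p = 0.00727), by edgeR. With control replicate 3 alone it was at 0.17 in BD and 0.15 in NBD. ITGA2, the collagen-binding α2 subunit (ENSG00000164171, chromosome 5, 52989326 to 53094779, plus strand), had 278, 232 and 304 CPM in BD, 290.0, 305 and 349 CPM in NBD and 459, 412 and 284 CPM in control. Its highest values were again in control replicates 1 and 2. It was at -0.50 ± 0.22 in BD and -0.29 ± 0.22 in NBD with all libraries. When control replicate 3 was left out, ITGA2 fell by 0.67 ± 0.19 in BD (edgeR, adjusted p = 0.0288) and was at -0.45 ± 0.19 in NBD (adjusted p = 0.131).

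Every BD library lay above every control library for ITGA3 and ITGB4. For ITGA3 the control libraries held 328, 375 and 511 CPM, below all BD libraries and overlapping NBD. The log2 fold change of BD against control was 0.53 ± 0.22 with all libraries (edgeR, adjusted p = 0.353). ITGA3 then rose, with control replicate 3 left out, by 0.74 ± 0.21 in BD (edgeR, adjusted p = 0.0260) and was at 0.26 ± 0.21 in NBD (adjusted p = 0.409). ITGB4 had 296, 343 and 389 CPM in control, again below all BD libraries, with a log2 fold change of 0.63 ± 0.30 with all libraries (edgeR, adjusted p = 0.379). Leaving out control replicate 3 gave 0.74 ± 0.32 (adjusted p = 0.121). ITGB4 shares part of its locus with GALK1, a galactose kinase gene on the opposite strand, whose counts reached 6.11% of those of ITGB4. ITGB1, the common partner of α2, α3, α5 and αv (ENSG00000150093, chromosome 10, 32900319 to 33005792, minus strand), had 241, 305 and 299.5 CPM in BD, 254, 372 and 350.2 CPM in NBD and 291, 283 and 284 CPM in control. The 3 groups overlapped, and it was at -0.02 ± 0.20 in BD and 0.19 ± 0.20 in NBD against control. ITGA5 had 60.6, 65.3 and 38.7 CPM in control, highest in replicates 1 and 2. It was at -0.24 ± 0.24 in BD and -0.77 ± 0.25 in NBD with all libraries (edgeR, adjusted p = 0.627 and 0.539). Without control replicate 3, ITGA5 was at -0.43 ± 0.22 in BD (edgeR, adjusted p = 0.173) and fell by 0.95 ± 0.22 in NBD (adjusted p = 0.0135).

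Among the αv integrins, the shared subunit ITGAV varied least. ITGAV (ENSG00000138448, chromosome 2, 186590065 to 186680901, plus strand) had 272, 243 and 237 CPM in BD, 275, 269 and 266 CPM in NBD and 249.9, 214 and 246 CPM in control. NBD lay above control in every library by a small margin. The 9 libraries spanned 1.29-fold, and 1.13% of genes tested spanned less on the log2 scale. ITGB8, which joins ITGAV in αvβ8 (ENSG00000105855, chromosome 7, 20330702 to 20415754, plus strand), had 126, 112 and 135 CPM in BD, 118, 93.6 and 131 CPM in NBD and 52.5, 37.1 and 133 CPM in control. For ITGB8, control replicates 1 and 2 lay below each of the other 7 libraries and control replicate 3 was second only to BD replicate 3. The span was 3.62-fold, the widest of the 10. With all libraries the log2 fold change was 0.74 ± 0.39 in BD and 0.62 ± 0.39 in NBD against control (edgeR, adjusted p = 0.396 and 0.571). ITGB8 rose, with control replicate 3 left out, by 1.48 ± 0.23 in BD (adjusted p = 0.00147) and by 1.37 ± 0.23 in NBD (adjusted p = 0.00279), by edgeR. With control replicate 3 alone it was at -0.10 in BD and -0.23 in NBD. An antisense gene, ITGB8-AS1, had counts of up to 4.11% of those of ITGB8.

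ITGB5, the β subunit of the vitronectin receptor αvβ5 (ENSG00000082781, chromosome 3, 124761948 to 124901418, minus strand), ran the other way, with 72.6, 71.2 and 59.9 CPM in BD, 65.0, 62.5 and 41.9 CPM in NBD and 111, 123 and 56.7 CPM in control. The first pair of controls lay above all others, and control replicate 3 lay among the NBD libraries. The log2 fold change was -0.51 ± 0.28 in BD and -0.78 ± 0.28 in NBD with all libraries (edgeR, adjusted p = 0.409 and 0.539). Against control replicates 1 and 2 alone, ITGB5 fell by 0.78 ± 0.21 in BD (adjusted p = 0.0200) and fell by 1.04 ± 0.21 in NBD (adjusted p = 0.00706), by edgeR. ITGB6 had 105, 90.1 and 85.3 CPM in control and was at -0.27 ± 0.16 in BD and 0.06 ± 0.16 in NBD. Its control libraries did not split in this way.

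The counts over the 10 subunits follow the same split. With all libraries, edgeR called 0 of 10 in BD against control, where 0% of genes were called, and 0 of 10 in NBD against control, where 0% were called. Unadjusted p under 0.05 was reached by 3 subunits in BD against control (2334 genes) and by 3 in NBD against control (1545 genes). DESeq2 also called 0 subunits in each, where it called 0.987% of genes in BD against control and 0.177% in NBD against control, with 4 and 3 subunits at an unadjusted p under 0.05. Groups did not overlap for 2 of 10 subunits in BD against control, both higher, against 15.8% of all genes, 8.05% higher and 7.72% lower. In NBD against control 1 of 10 did not overlap, ITGAV, which was higher, against 8.42% of all genes, 4.67% higher and 3.75% lower. Leaving out control replicate 3, edgeR called 5 of 10 subunits in BD against control, 2 higher and 3 lower, where 24.3% of genes were called, 13.8% higher and 10.5% lower. NBD against control then had 4 of 10 called, 1 higher and 3 lower, where 18.2% of genes were called, 11.6% higher and 6.56% lower. Control replicates 1 and 2 were the closest replicates of any group, with a chi-square between their counts of 13.1 per gene. Other pairs within a group ran from 23.7 to 165. These 2 controls also had the lowest depth, and this value rises with depth. Both comparisons use the same control libraries, and control replicate 3 was singled out after its values were seen. With replicate 3 as the sole control, 0 of 10 were called in each, and 0% of all genes. Control replicates 1 and 2 both lay outside the range of the other 7 libraries for 5 of 10 subunits, ITGA2, ITGA5, ITGA6 and ITGB5 above and ITGB8 below, against 40.5% of all genes, 18.9% above and 21.6% below. Over 16 alternatives, the log2 fold change against control ran from -0.10 to 1.48 for ITGB8, from -1.05 to 0.17 for ITGA6, from -0.78 to 0.25 for ITGB5, from -0.67 to -0.07 for ITGA2 and from 0.18 to 0.74 for ITGA3 in BD. Adjusted p ran up to 1.00 for each of these 5, from lowest values of 0.00147, 0.00577, 0.0200, 0.0288 and 0.0260, all without control replicate 3. In NBD the log2 fold change ran from -0.23 to 1.37 for ITGB8, from -1.05 to 0.15 for ITGA6, from -1.04 to -0.02 for ITGB5 and from -0.98 to -0.28 for ITGA5, with adjusted p up to 1.00.

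**Figure D3:**
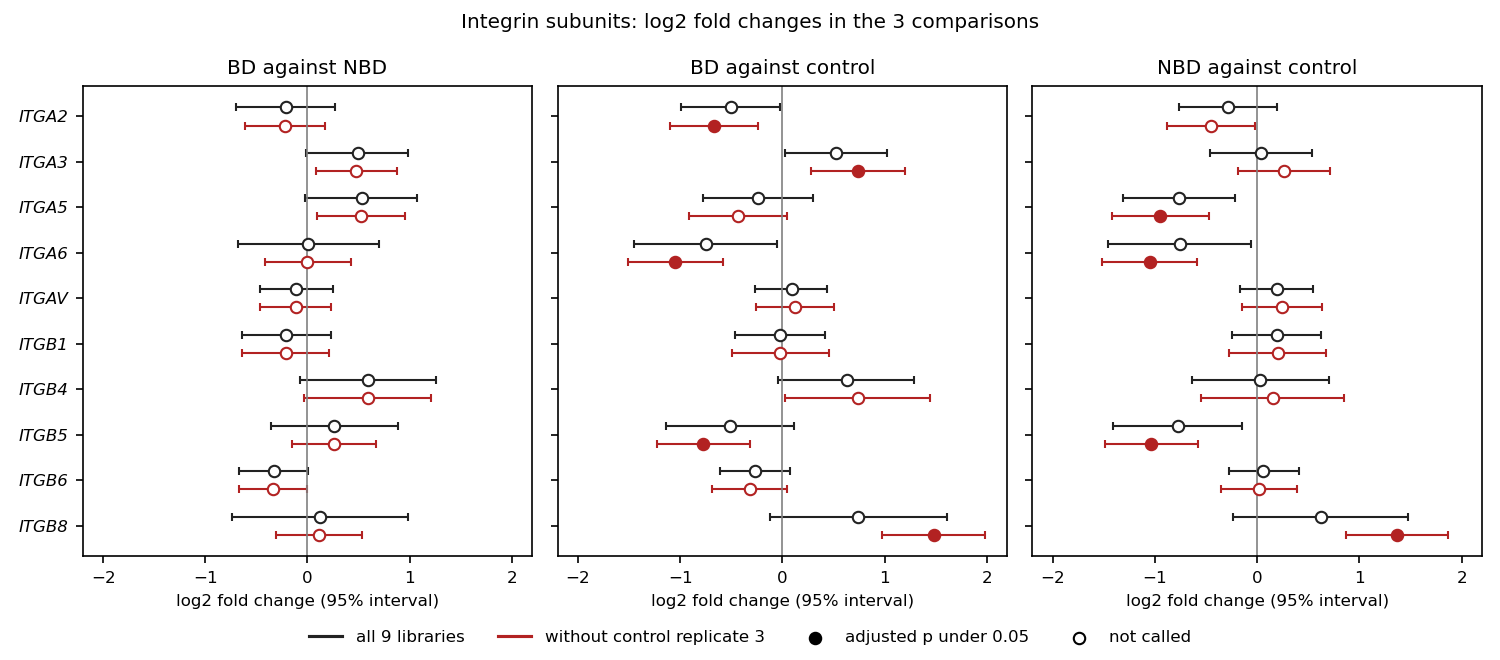
Log2 fold changes with 95% intervals (horizontal axis) of the 10 integrin subunits (vertical axis), 1 panel per comparison; black marks are the fit of all 9 libraries, red marks the fit without control replicate 3, and filled marks an adjusted p under 0.05. No mark is filled in BD against NBD, 5 red marks are filled in BD against control and 4 in NBD against control.

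The balance of partner subunits within a library does not depend on how libraries are scaled. The ratio of ITGA6 to ITGB4, in CPM per kb, was 0.601, 0.764 and 0.799 in BD, 0.610, 1.27 and 1.83 in NBD and 2.69, 2.24 and 0.857 in control. All BD libraries held more ITGB4 than ITGA6, control replicates 1 and 2 held more ITGA6, and NBD spanned both. These ratios stayed on the same side of 1 with the longest coding transcript as the length, and GC content moved with NBD and control libraries as above. The ratio of ITGA3 to ITGB1 was 1.37, 1.18 and 1.28 in BD, 1.14, 0.725 and 0.589 in NBD and 0.691, 0.811 and 1.11 in control, so BD was above all other libraries. The ratio of ITGA2 to ITGB1 was 0.876, 0.578 and 0.771 in BD, 0.869, 0.623 and 0.757 in NBD and 1.20, 1.10 and 0.762 in control, with control replicates 1 and 2 highest. The ratio of ITGA5 to ITGB1 was 0.168, 0.111 and 0.120 in BD, 0.129, 0.0665 and 0.0552 in NBD and 0.165, 0.183 and 0.108 in control. NBD replicates 2 and 3 were lowest.

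The β partners of ITGAV also differed in proportion. Of the summed CPM per kb of ITGB5, ITGB6 and ITGB8, ITGB8 made up 23.3%, 21.8% and 24.5% in BD, 20.9%, 16.6% and 23.6% in NBD and 8.06%, 5.99% and 24.5% in control. ITGB5 made up 31.7%, 32.6% and 25.5% in BD, 27.0%, 26.0% and 17.7% in NBD and 40.0%, 46.9% and 24.6% in control. The first pair of controls thus held the lowest ITGB8 and the highest ITGB5 shares of the 9 libraries. ITGB6 made up 45.0%, 45.6% and 50.0% in BD, 52.1%, 57.4% and 58.7% in NBD and 51.9%, 47.1% and 50.9% in control, so all NBD shares lay above all BD shares. With the longest coding transcript as the length, the ITGB8 shares were 30.6%, 28.7% and 32.6% in BD, 28.2%, 23.0% and 32.5% in NBD and 11.2%, 8.19% and 32.7% in control. The ratio of ITGAV to ITGB8 was 4.00, 4.01 and 3.23 in BD, 4.30, 5.31 and 3.73 in NBD and 8.78, 10.6 and 3.42 in control, with control replicates 1 and 2 highest. With 3 libraries against 3, an exact permutation test cannot go below p = 0.10, so ratios and shares are described only.

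**Figure D4:**
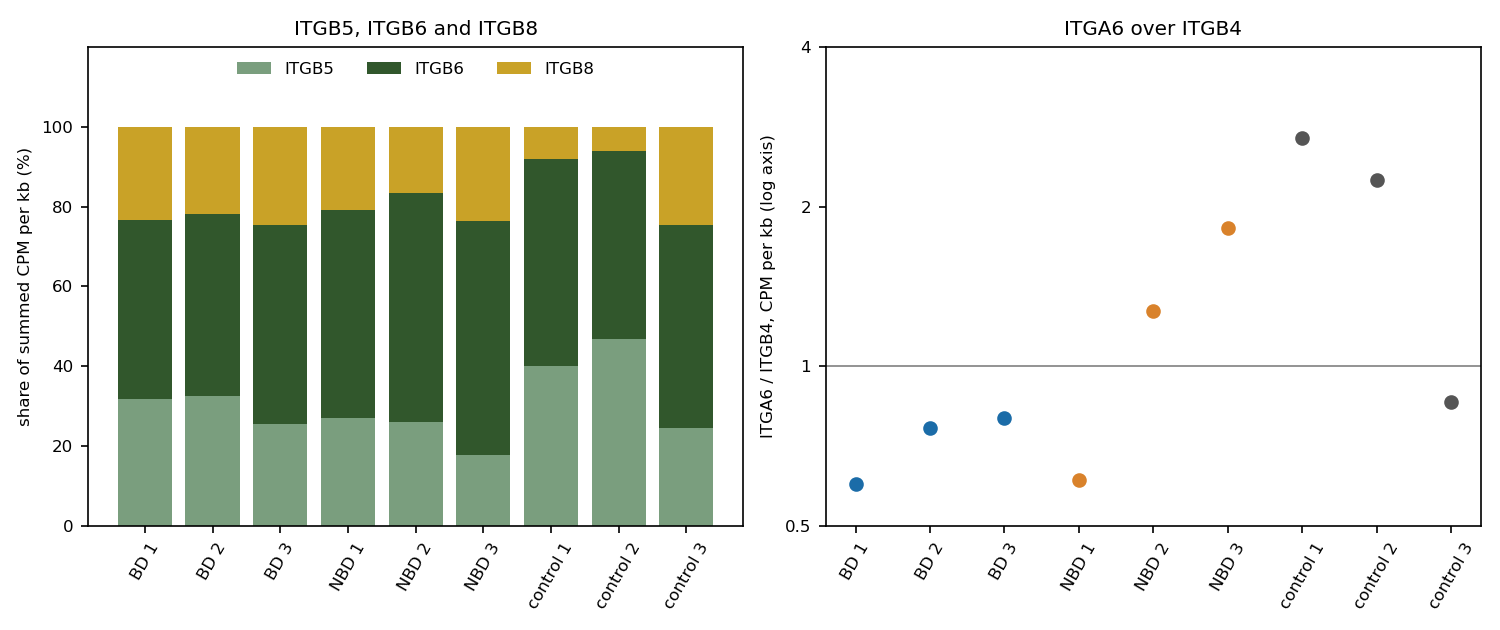
Left, share of ITGB5, ITGB6 and ITGB8 in their summed CPM per kb (percent, from 0) in each library; right, ratio of ITGA6 to ITGB4 in CPM per kb (log axis) in each library. ITGB8 is 8.06% and 5.99% in control replicates 1 and 2 against 16.6% to 24.5% in the other 7, and the ratio is below 1 in all BD libraries.

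The genes most like a subunit over the 9 libraries were sought for the 3 with the widest span, over 16921 genes. Likeness was the smallest root mean square difference of log2 CPM, with 0.5 added to each CPM, centred on each gene's mean. ITGB8 was closest to FBXO15 (0.105 log2 units), RGL1 (0.106) and NRIP1 (0.106). FBXO15 ran from 0.729 to 4.09 CPM and RGL1 from 1.07 to 4.41 CPM, levels at which the added 0.5 narrows the span. NRIP1 ran from 63 to 246 CPM. ITGB4 was closest to MAP1S (0.0999), MGRN1 (0.108) and PCDHGC3 (0.113), a gene of a protocadherin cluster whose members share exons. ITGB5 was closest to ELAVL1 (0.0793), WDR5 (0.0851) and NCAPD2 (0.0962). These distances share the libraries, their depth and their base composition.

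Beyond the 10 subunits, 16 other integrin genes were looked up, and 7 passed the filter on low counts. ITGA4, which forms the fibronectin and VCAM-1 receptor α4β1 and is best known from leukocytes, had 7.88, 15.6 and 14.4 CPM in BD, 6.74, 57.3 and 15.6 CPM in NBD and 126, 98.6 and 17.6 CPM in control. It was highest in control replicates 1 and 2, with NBD replicate 2 next. Against control replicates 1 and 2 alone, ITGA4 fell by 3.14 ± 0.66 in BD (adjusted p = 0.00681) and fell by 2.07 ± 0.64 in NBD (adjusted p = 0.0447), by edgeR. ITGB7, a partner of ITGA4 and ITGAE, had 3.54, 3.61 and 2.72 CPM in BD, 3.00, 2.61 and 2.75 CPM in NBD and 1.18, 0.785 and 3.09 CPM in control. It rose by 1.75 ± 0.36 in BD (adjusted p = 0.00634) and by 1.52 ± 0.36 in NBD (adjusted p = 0.0159) without control replicate 3, by edgeR. With all 9 libraries neither was called. ITGA1 ran from 15.2 to 32.3 CPM and ITGAE from 9.56 to 17.8 CPM over the 9 libraries, while ITGB2, the β subunit of leukocyte integrins, and ITGB3, that of platelets, both chosen after their values were seen, stayed at or under 0.409 and 0.103 CPM. ITGAD had 0 counts in every library, where 3 counts would be 0.103 to 0.168 CPM.

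Of 16 listed ligand genes, 14 were tested, and none was called in any comparison with all libraries, in which 2 reached an unadjusted p under 0.05 in BD against NBD, 3 in BD against control and 1 in NBD against control, against 991, 2334 and 1545 of the 16921 genes, while DESeq2 called 0. Without control replicate 3, BD against control had 1 higher and 5 lower, where 13.8% of all genes were higher and 10.5% lower, with a median log2 fold change of -0.73 against 0.04 for all genes. NBD against control had 0 higher and 4 lower, where 11.6% were higher and 6.56% lower, with a median of -0.30 against 0.08. FN1, encoding fibronectin, had 903, 445 and 478 CPM in BD, 1015, 609.8 and 239 CPM in NBD and 3071, 3221 and 361 CPM in control, with replicates 1 and 2 of control far above the rest. It fell by 2.36 ± 0.48 in BD (adjusted p = 0.00634) and fell by 2.33 ± 0.48 in NBD (adjusted p = 0.00881) in that fit, by edgeR. THBS1, which encodes thrombospondin-1, fell by 2.03 ± 0.53 in BD (edgeR, adjusted p = 0.0187). LAMB1, a laminin β chain, fell by 1.74 ± 0.32 in BD and fell by 1.14 ± 0.32 in NBD (edgeR, adjusted p = 0.00374 and 0.0313). TNC, encoding tenascin-C, fell by 1.42 ± 0.43 in BD and fell by 1.51 ± 0.43 in NBD (edgeR, adjusted p = 0.0341 and 0.0335).

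LAMB3 and LAMA3 encode a β and an α chain of laminin, the ligand of α6β4 and α3β1. LAMB3 had 789, 751 and 810.2 CPM in BD, 677, 480.2 and 378 CPM in NBD and 412, 511 and 612 CPM in control, with BD above both other groups. It rose by 0.77 ± 0.25 in BD against control without control replicate 3 (edgeR, adjusted p = 0.0476). LAMA3 had 382, 357 and 336 CPM in BD, 422, 545 and 314 CPM in NBD and 703, 750 and 292 CPM in control, highest in control replicates 1 and 2. In that fit LAMA3 fell by 1.01 ± 0.23 in BD and fell by 0.75 ± 0.23 in NBD (edgeR, adjusted p = 0.00973 and 0.0428).

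All 23 genes listed as adhesion adaptors and kinases were tested. With all libraries edgeR and DESeq2 called 0 in each comparison. By edgeR, 1, 5 and 1 reached an unadjusted p under 0.05 in BD against NBD, in BD against control and in NBD against control. Of all 16921 genes, 991, 2334 and 1545 did. Without control replicate 3, 2 of the 23 were higher and 5 lower in BD against control, where 13.8% of all genes were higher and 10.5% lower. The median was -0.64 against 0.04 for all genes. In NBD against control 0 were higher and 5 lower, where 11.6% of all genes were higher and 6.56% lower, with a median of -0.61 against 0.08. VCL, encoding vinculin, had 141, 168 and 158 CPM in BD, 144, 284 and 144 CPM in NBD and 429.8, 445 and 156 CPM in control. The first 2 control libraries were highest, and VCL fell by 1.48 ± 0.28 in BD and fell by 1.18 ± 0.28 in NBD (edgeR, adjusted p = 0.00400 and 0.0150). The paxillin gene PXN fell by 1.27 ± 0.33 in BD and fell by 1.21 ± 0.33 in NBD, and the parvin gene PARVB fell by 1.25 ± 0.24 in BD and fell by 1.33 ± 0.24 in NBD (edgeR, adjusted p = 0.0186 and 0.0291 for PXN, 0.00463 and 0.00440 for PARVB). The focal adhesion kinase gene PTK2 fell by 0.82 ± 0.20 in BD, and the kindlin gene FERMT1 fell by 0.79 ± 0.23 in NBD (edgeR, adjusted p = 0.0126 and 0.0340). BCAR1, the scaffold p130Cas, and ILK, the integrin-linked kinase, rose by 1.28 ± 0.26 and 0.57 ± 0.18 in BD (edgeR, adjusted p = 0.00627 and 0.0397).

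All 7 hemidesmosome and tetraspanin partners were tested, and edgeR and DESeq2 called 0 with all libraries. By edgeR, 1, 2 and 2 reached an unadjusted p under 0.05 in BD against NBD, in BD against control and in NBD against control. Of all 16921 genes, 991, 2334 and 1545 did. Without control replicate 3, 1 of the 7 was higher and 2 lower in each comparison with control. Of all genes, 13.8% were higher and 10.5% lower in BD, and 11.6% were higher and 6.56% lower in NBD. CD81, a tetraspanin, had 39.0, 35.5 and 37.2 CPM in BD, 34.5, 44.6 and 25.3 CPM in NBD and 116, 139 and 32.3 CPM in control, and fell by 1.76 ± 0.22 in BD and fell by 1.86 ± 0.22 in NBD (edgeR, adjusted p = 4.8e-04 and 4.9e-04). CD82, another tetraspanin, had 37.1, 32.0 and 33.5 CPM in BD, 31.0, 27.3 and 32.0 CPM in NBD and 13.6, 15.8 and 28.8 CPM in control, and rose by 1.23 ± 0.19 in BD and by 1.05 ± 0.18 in NBD (edgeR, adjusted p = 0.00136 and 0.00378). COL17A1, a transmembrane collagen of hemidesmosomes, fell by 0.88 ± 0.25 in BD and fell by 0.97 ± 0.25 in NBD (edgeR, adjusted p = 0.0283 and 0.0238). In each of these genes the values of control replicate 3 were near those of the sorted cells.

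Of 13 genes of TGF-β activation and response, 11 were tested, and edgeR and DESeq2 called 0 with all libraries. By edgeR, 0, 3 and 1 reached an unadjusted p under 0.05 in BD against NBD, in BD against control and in NBD against control. Of all 16921 genes, 991, 2334 and 1545 did. Without control replicate 3, 0 of the 11 were higher and 3 lower in BD against control, where 13.8% of all genes were higher and 10.5% lower. The median log2 fold change was -0.43 against 0.04 for all genes. In NBD against control 0 were higher and 2 lower, where 11.6% of all genes were higher and 6.56% lower, with a median of -0.44 against 0.08. TGFB2, a TGF-β ligand, had 3.65, 1.96 and 0.965 CPM in BD, 2.33, 5.34 and 1.30 CPM in NBD and 14.6, 10.9 and 0.791 CPM in control, and fell by 2.53 ± 0.57 in BD and fell by 2.09 ± 0.56 in NBD (edgeR, adjusted p = 0.00959 and 0.0276). LTBP1 and LTBP2, of the latent TGF-β binding protein family, fell by 2.00 ± 0.52 and 1.28 ± 0.30 in BD (edgeR, adjusted p = 0.0180 and 0.0117), and LTBP2 fell by 1.38 ± 0.30 in NBD (adjusted p = 0.0113). LRRC32 and NRROS, which tether latent TGF-β on other cell types and were chosen after their values were seen, had 0 counts in every library.

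**Figure D5:**
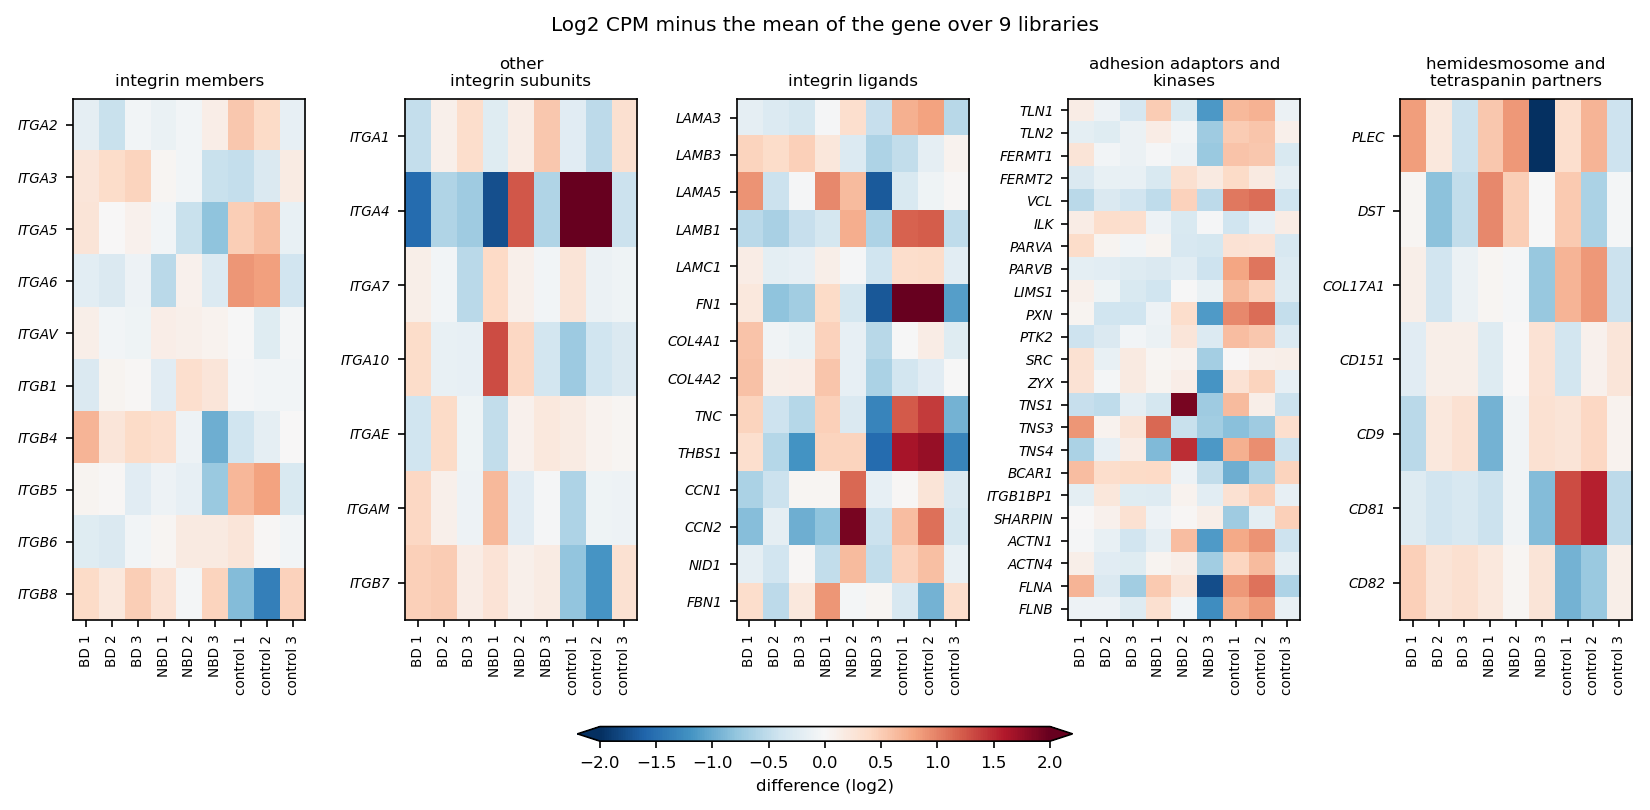
Log2 CPM of each tested gene minus its mean over the 9 libraries (colour, drawn to ±2) for the integrin subunits and 4 gene lists, with libraries as columns. Control replicates 1 and 2 form a pair of columns apart from the rest for FN1, CD81 and VCL, and control replicate 3 has colours like those of the sorted libraries for these genes.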

How the data were processed

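The authors deposited raw counts per gene. The submitters' processing notes name Trimmomatic 0.39, FastQC 0.74, featureCounts and STAR 2.7.11b, and the build GRCh38. Libraries were paired-end, stranded and rRNA-depleted, per the labels' protocols. The sources used here give no annotation release, strand setting or rule for multi-mapping reads, so counts of overlapping genes and of ITGB1 and its pseudogene ITGB1P1 (10 to 25 counts) carry that uncertainty. The 10 members and all gene lists were chosen with earlier results of these data known. A ligand gene of the original list is not reported here.

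Of 78899 gene IDs, 39344 had a count. Genes were kept by filterByExpr (16921; 17755 without control replicate 3), scaled by TMM and fitted in edgeR 4.0.16 (R 4.3.3) with a term per group over all 9 libraries. Tests were two-sided and called at a Benjamini-Hochberg adjusted p under 0.05. Log2 fold changes are given ± standard error, and CPM is normalised by the scaled library total. Values called log2 CPM are the log2 of CPM plus 0.5. The standard error was derived as the absolute log2 fold change over the square root of the quasi-likelihood F statistic. The 95% intervals used it with a t quantile. Lengths, coordinates and GC came from GENCODE 29. DESeq2 1.42.0, no filter, 1 CPM in 3 libraries, a replicate block, 6 libraries alone and leaving out each library were alternatives. The 10 members were named throughout; in each list, up to 4 called genes per comparison and direction were named by size of change, or, where none was called, up to 3 with the highest mean. Genes outside this rule are given as chosen after their values were seen. On simulated counts of 16411 genes for BD against NBD, the edgeR test recovered 4.48% of genes changed 1.5-fold. It recovered 14.9% of those changed 2-fold and 92.4% changed 4-fold, with 10 false calls. For the same 3 sizes it recovered 1.49%, 7.46% and 74.2% in simulated BD against control over 16482 genes, with 3 false calls. In simulated NBD against control over 16424 genes it recovered 0%, 10.4% and 74.2%, with 1 false call. The simulation took its spread from the fit of all 9 libraries and changed no genes of low level. Figures used Python 3.11.15 and matplotlib 3.10.9.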

Additional observations from a re-analysis of the deposited data

How the results depend on the processing

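The edgeR counts of genes called moved with several choices. For BD against NBD, 3 genes were called, against 131 with no filter, 58 by DESeq2, 5 from the 6 libraries alone, 9 with replicate 3 as the sole control and 0 to 16 when 1 library was left out. For BD against control, 0 were called, against 1162 with no filter, 167 by DESeq2 and 0 to 4317 when 1 library was left out. For NBD against control, 0 were called, against 594 with no filter, 30 by DESeq2 and 0 to 3228 when 1 library was left out. The highest of each range came without control replicate 3. Subunits called ran from 0 to 5 in BD against control and from 0 to 4 in NBD against control when 1 library was left out, and stayed at 0 in BD against NBD. With the replicate number as a block, 0 genes were called in BD against NBD and 0 subunits in any comparison. Same-numbered samples deviated together at r = 0.66, 0.08 and 0.37 for BD and NBD, at 0.26, 0.05 and 0.29 for BD and control and at 0.00, 0.49 and 0.36 for NBD and control. Differently numbered samples ran from -0.63 to 0.48, from -0.27 to 0.14 and from -0.53 to 0.44 in the same order. Deviations within a group cancel, so these values depend on one another. The main fit did not pair the samples because the labels state no pairing. Whether same-numbered samples share an origin was not tested.

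Some directions turned, for small values and, with replicate 3 as the sole control, also for the largest values against control, such as ITGB8 and ITGA6. In BD against NBD, ITGA6 was at -0.0078 with 1 CPM in 3 libraries, -0.0033 from the 6 libraries alone, -0.04 without BD replicate 3, -0.13 without NBD replicate 1 and -0.0073 without NBD replicate 3, reaching 0.20 without NBD replicate 2. ITGB8 was at -0.0012 without NBD replicate 2 and 0.24 without NBD replicate 3. With replicate 3 as the sole control, BD against control had ITGA5 at 0.26, ITGA6 at 0.17, ITGB5 at 0.25 and ITGB8 at -0.10, and NBD against control had ITGA2 at 0.14, ITGA3 at -0.31, ITGA6 at 0.15, ITGB4 at -0.17 and ITGB8 at -0.23. ITGB1 in BD against control was at 0.08 without BD replicate 1 and -0.08 without BD replicate 2. In NBD against control, ITGA3 was at -0.06 without NBD replicate 1, -0.0036 without NBD replicate 2, -0.09 without control replicate 1 and -0.02 without control replicate 2. ITGB4 there was at -0.04 with the replicate block, -0.28 without NBD replicate 1, -0.00022 without NBD replicate 2, -0.07 without control replicate 1 and 0.31 without NBD replicate 3. The cause was not tested. Fits with control replicate 3 alone assume that it varies like the other groups, and were chosen after seeing the data.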
